A study of Bos taurus with 10 samples.

Results

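The mitochondrial ribosomal proteins are the protein part of the ribosome that works inside mitochondria. Their genes were taken as all probe sets of the array with exactly 1 gene symbol in the platform annotation where that symbol starts with MRPL or MRPS followed by a number. A probe set is the group of short probes that reads 1 transcript. The rule found 84 probe sets of 67 genes, among 9155 named genes on the array, and the brightest probe set by mean level stood for each gene. By known position in the ribosome 45 of the 67 proteins belong to the large subunit and 22 to the small subunit, with MRPS30 and MRPS18A counted as large subunit proteins despite their names and MRPS36 kept with the small subunit by name.

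Longissimus dorsi, a back muscle, was sampled from 10 Hanwoo, a Korean beef breed, and its RNA was measured with 1 Affymetrix GeneChip Bovine Genome Array per animal. The series title concerns beef traits, but without any treatment, genotype or trait value in the labels the 10 animals form 1 group. An age of about 2 years is given for animal 1 and for no other. Nothing but the sample numbers marks the samples as separate cattle, and if they were not separate, the p-values measure only technical spread.

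The mitochondrial ribosome translates the few messenger RNAs that the mitochondrial genome encodes, all of them for membrane subunits of the respiratory chain and the ATP synthase. Its proteins are encoded in the nucleus, made in the cytosol and imported. Skeletal muscle, rich in mitochondria in its slow fibres, depends on this ribosome to build the complexes that make ATP, and inherited defects in several of these genes in humans cause combined respiratory chain deficiency.

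Levels are log2(intensity + 16) after quantile normalization, which gives each array the same distribution of values, so a difference of 1 is a change of at least 2-fold in normalized signal, and changes of dim genes are understated. All 67 genes had a mean above 6.98, the middle value among the probe sets that are not controls, as did 6271 of the 9155 named genes, and these 6271 are called the tested genes. Means of the 67 genes ran from 8.59 to 13.09 with a median of 10.69, against a median of 9.24 over the tested genes. Brightness also depends on each probe set's own sequences, so the order of the genes by level is not read. Array medians lay between 111 and 134 in deposited intensity.

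Animal 5 stood apart before any gene was considered. The difference between the 3' and the 5' probe sets of 4 control RNAs with a poly(A) tail, added to each sample, was 2.67 on the log2 scale in animal 5 and 0.78 to 1.06 in the other 9. Results that rest on this animal are therefore given with and without it, and what its RNA or its labelling contributed was not tested. Muscle fibre markers, 11 of 12 measured, had means between 15.34 and 16.05, near the highest normalized value of 16.07, and their mean deviation stayed between -0.04 and 0.03 in the 10 animals. The leukocyte markers, 8 of 9 tested, had a mean deviation of -0.83 in animal 5 and -0.56 to 0.92 in the other 9, and the 6 smooth muscle markers -0.55 in animal 5 and -0.36 to 0.42 in the others. The mean deviations in animal 5 were inside the range of the other 9 for adipocyte markers (-0.43, 12 of 15 tested), connective tissue markers (-0.92, 8 of 8), endothelial markers (-0.03, 4 of 6), nerve markers (-0.10, 2 of 3) and red cell markers (0.00, 1 of 4). The part of other cell types in the results below was not tested. In whole muscle, fewer cells of a type and less RNA per cell cannot be told apart.

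Most of the mitochondrial ribosomal protein genes had their lowest value in animal 5. The lowest of the 10 values was that of animal 5 in 41 of the 67 genes (61.2%), against 27.6% of the tested genes. Animal 5 was more than 0.5 below the mean of the other 9 animals in 36 of the 67 genes (53.7%), against 27% of the tested genes, and more than 0.5 above it in 7, against 19.7%. The median difference between animal 5 and the mean of the other 9 was -0.58 over the 67 genes and -0.06 over the tested genes. The low values were not particular to these genes. Of 76 nuclear-encoded respiratory chain genes 61.8% were lowest in animal 5, and of 57 cytosolic ribosomal protein genes 80.7%. In these 2 lists 57.9% and 70.2% were more than 0.5 below, and the median differences were -0.73 and -1.14. Of the large subunit genes 29 of 45 were lowest in animal 5, with a median difference of -0.80, and of the small subunit genes 12 of 22, with a median difference of -0.39; the difference between the subunits was not tested.

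**Figure D1:**
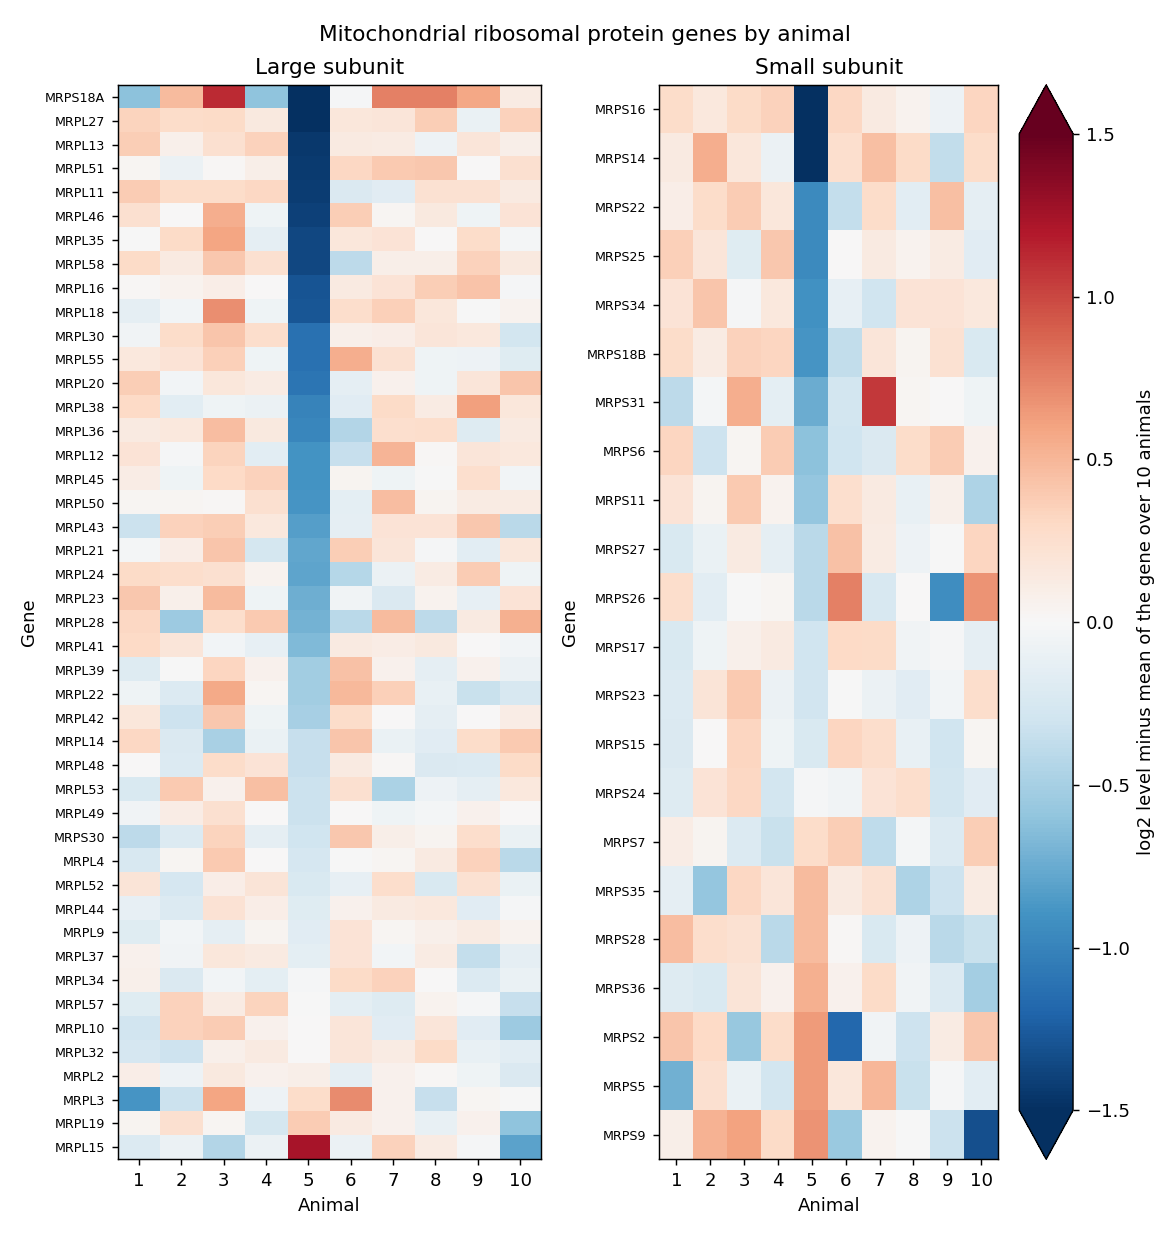
Level of each of the 67 mitochondrial ribosomal protein genes in each of the 10 animals, as log2 level minus the gene's mean over the animals (blue low, red high, colours limited at 1.5), for the large subunit and the small subunit, sorted by the difference of animal 5 from the mean of the other 9. The column of animal 5 runs from deep blue (MRPS18A, at 7.20) to red (MRPL15, at 11.05), and 41 of the 67 genes have their lowest value there.

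Near the peptidyl transferase centre, the site in the large subunit where the peptide bond forms, the genes differed in how they behaved. MRPL27, whose bacterial counterpart reaches towards that centre, stood at 10.46 in animal 5 and at 12.33 to 12.80 in the other 9. MRPL16, the counterpart of a protein that touches the incoming tRNA, stood at 9.72 in animal 5, while the other 9 had a median of 11.12 and a highest value of 11.45. In both genes animal 5 was below all the others by more than the whole range of the other 9. MRPL2, an RNA-binding protein of the same core, had 10.03 as its lowest, 10.29 as its median and 10.40 as its highest value. Its SD of 0.12 over the 10 animals was the smallest of the 67, and animal 5, at 10.34, was inside the range of the other 9. MRPL3, whose gene is mutated in a mitochondrial cardiomyopathy of infants in humans, had 10.34, 11.23 and 11.93 as its lowest, median and highest value. The lowest was in animal 1, the highest in animal 6, and animal 5 stood at 11.49. MRPL4, another core protein, ran from 10.51 in animal 10 to 11.31 in animal 3, with animal 5 at 10.67.

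The stalk of the large subunit recruits the elongation factors. MRPL11, at the base of the stalk, stood at 9.27 in animal 5 and at 10.47 to 11.07 in the other 9. MRPL12, the stalk protein itself, stood at 9.26 in animal 5 and at 9.82 to 10.67 in the other 9. MRPL10, which links MRPL12 to the ribosome, stood at 10.38 in animal 5, close to the median of 10.43 in the others, and had its lowest value, 9.82, in animal 10. So of the 3 stalk genes, animal 5 was lowest in MRPL11 and MRPL12 and inside the range in MRPL10.

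In the central protuberance, the top of the large subunit that holds a structural tRNA in mammals, animal 5 was the lowest in the 4 genes described here. These 4 were picked by their values or after those were seen and do not stand for the whole region. MRPL52, a large subunit gene not counted with them, stood at 9.09 in animal 5 and at 9.07 to 9.58 in the other 9. MRPL18, the counterpart of a bacterial protein that binds 5S rRNA, stood at 10.18 in animal 5 and at 11.32 to 12.16 in the other 9. MRPL46, which has no bacterial counterpart, stood at 7.27 in animal 5 and at 8.61 to 9.21 in the others. MRPL38 stood at 8.60 in animal 5 and at 9.43 to 10.21 in the others. In these 3 genes the gap below the others was wider than their whole range, and MRPL48, with a smaller step, had 10.45 in animal 5 and 10.57 to 11.08 in the others.

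Around the tunnel through which the new peptide leaves, animal 5 was the lowest in the 4 genes described here. These 4 were chosen after their values were seen and do not stand for the whole region. MRPL4, described above and not counted with them, was lowest in animal 10, with animal 5 inside the range of the others. MRPL22 stood at 10.73 in animal 5 and at 10.92 to 11.82 in the other 9, and MRPL23 at 10.53 in animal 5 and at 11.04 to 11.73 in the others. MRPL24 stood at 9.14 in animal 5, with a median of 10.05 and a highest value of 10.31 in the others. MRPL45, which anchors the ribosome to the inner membrane, stood at 10.38 in animal 5 and at 11.21 to 11.62 in the others.

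MRPL58 encodes a peptidyl-tRNA hydrolase that sits in the ribosome and can free stalled ones. It stood at 10.39 in animal 5 and at 11.37 to 12.16 in the other 9. Among the other large subunit genes, MRPL13 stood at 9.31 in animal 5 and at 10.68 to 11.13 in the others. MRPL35 stood at 10.54 in animal 5 and at 11.77 to 12.50 in the others. MRPL51, which has no bacterial counterpart, stood at 10.69 in animal 5 and at 12.04 to 12.54 in the others. MRPL13 was among the steadiest of the genes without animal 5, with an SD of 0.14 over 9 animals against 0.53 over 10. MRPL41, another protein without a bacterial counterpart, stood at 10.89 in animal 5 and at 11.43 to 11.85 in the others.

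MRPL15 went the other way. It stood at 11.05 in animal 5, its highest value, and at 9.01 to 10.16 in the other 9, so its difference of 1.38 was the largest positive one of the 67. MRPL15 is the counterpart of a core protein of the bacterial large subunit. The only other large subunit gene with its highest value in animal 5 was MRPL19, at 10.95 there and 9.97 to 10.81 in the others. Genes that hardly differed included MRPL34, at 11.90 in animal 5 and 11.70 to 12.27 in the others, and MRPL9, at 12.92 in animal 5 and 12.91 to 13.29 in the others. MRPL37, at 11.26 in animal 5 and 11.05 to 11.62 in the others, and MRPL44, at 9.07 in animal 5 and 9.04 to 9.47 in the others, were also inside the range of the other 9. MRPL44 is related to RNase III, and its gene is mutated in a human cardiomyopathy. MRPL49 stood at 10.37 in animal 5 and at 10.62 to 10.93 in the others, a small step that still left animal 5 lowest.

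The bacterial small subunit protein S18 has several mitochondrial versions, and the 2 measured here were MRPS18A and MRPS18B. MRPS18A, which sits in the large subunit, had 7.20, 10.06 and 10.88 as its lowest, median and highest value. Its SD of 1.07 was the largest of the 67. The lowest value was in animal 5, and without animal 5 its SD of 0.61 was still the largest, with animals 1 and 4 low at 9.14 and 9.16 and animals 3, 7 and 8 high at 10.88, 10.51 and 10.52. MRPS18B, in the small subunit, ran from 10.51 to 11.23 in the other 9 animals and was below them in animal 5, by a difference of -0.98 from their mean. MRPS30, the other large subunit protein with a small subunit name, stood at 9.95 in animal 5 and at 9.86 to 10.66 in the others.

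In the small subunit, low and high genes in animal 5 stood side by side. MRPS16, whose loss in humans causes fatal lactic acidosis of the newborn, stood at 10.09 in animal 5 and at 11.83 to 12.26 in the other 9. MRPS14, a protein of the head of the subunit, stood at 10.04 in animal 5 and at 11.37 to 12.29 in the others. MRPS22, whose gene is mutated in a human respiratory chain deficiency, stood at 8.42 in animal 5 and at 9.01 to 9.82 in the others. In these 3 genes animal 5 was outside the range of the others.

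Another 6 small subunit genes had their highest value in animal 5. MRPS9, a head protein near the peptidyl site tRNA, stood at 9.48 in animal 5 and at 7.49 to 9.41 in the other 9. MRPS5, near the entry of the mRNA, stood at 11.39 in animal 5 and at 10.03 to 11.25 in the others. MRPS2 stood at 10.18 in animal 5 and at 8.36 to 9.96 in the others, with its lowest value in animal 6. In these 3 genes animal 5 was only slightly above the next animal, a step that was small beside the range of the others. MRPS35, MRPS36 and MRPS28 were the other 3, with differences from the mean of the other 9 of 0.52, 0.60 and 0.53. They stood at 10.24, 12.16 and 9.95 in animal 5, and the highest values of the others were 10.08, 11.92 and 9.93, again small steps. MRPS36 has since been assigned to the 2-oxoglutarate dehydrogenase complex and is a member here by its symbol. In all, 8 of the 67 genes (11.9%) were highest in animal 5, against 21.1% of the tested genes. MRPS7, another head protein, ran from 9.67 in animal 7 to 10.42 in animal 6.

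The spread between animals was near that of other genes with animal 5 and smaller without it. The median SD over 10 animals was 0.35 for the 67 genes and 0.36 for the tested genes, and 14 of the 67 (20.9%) had an SD over 0.5, against 22.1% of the tested genes. Without animal 5 the median SD was 0.24 for the 67 genes and 0.31 for the tested genes, and 4 of the 67 (5.97%) were over 0.5, against 14.5% of the tested genes. The 4 were MRPS18A, MRPS9 at 0.59, MRPS2 at 0.53 and MRPS26 at 0.51. MRPS26 had 9.15, 10.08 and 10.84 as its lowest, median and highest value, with animals 6 and 10 high and animal 9 low. The SD of MRPL27 was 0.71 over 10 animals and 0.15 over 9, and that of MRPS16 was 0.65 over 10 and 0.14 over 9.

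**Figure D2:**
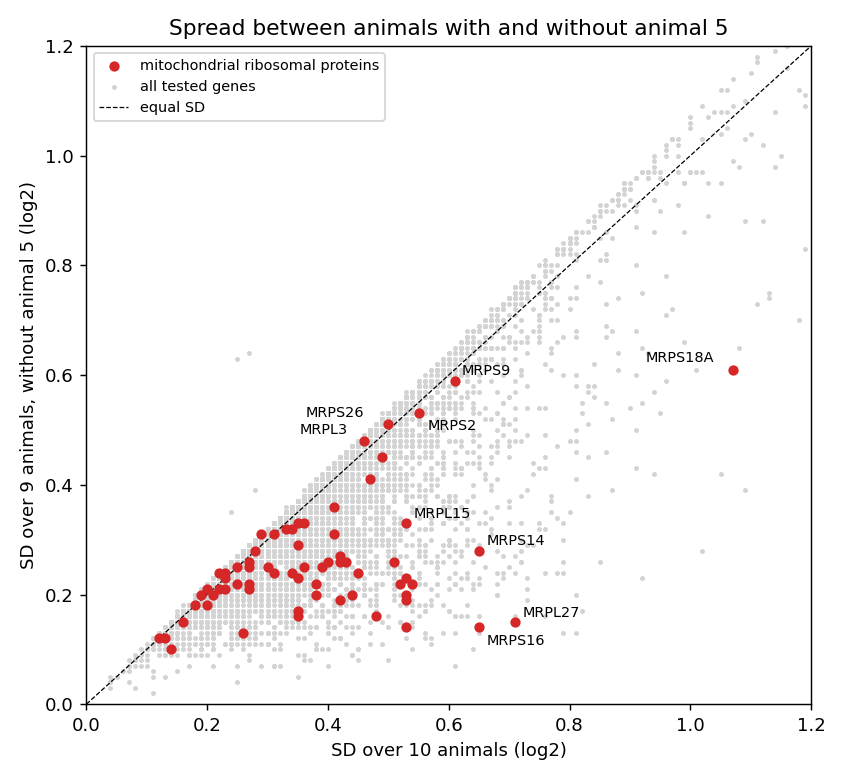
SD of each gene over 10 animals (horizontal) and over the 9 animals without animal 5 (vertical), log2 scale, for the 67 mitochondrial ribosomal protein genes in red and the tested genes in grey, both axes limited at 1.2. MRPL27, MRPS16 and MRPS14 lie far below the line of equal SD, while MRPS9, MRPS2 and MRPS26 lie close to it, with SDs of 0.59, 0.53 and 0.51 without animal 5.

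Animal 3 was at the other end, by a smaller step. The mean deviation of the 67 genes was 0.22 in animal 3, 0.13 in animal 7 and -0.56 in animal 5, while the remaining 7 animals stayed between -0.02 and 0.06. Cytosolic ribosomal proteins likewise had their highest mean deviation in animal 3, at 0.20. The respiratory chain genes had theirs in animal 7, at 0.20, with 0.11 in animal 3. Animal 3 held the highest value in 21 of the 67 genes (31.3%), against 10.9% of the tested genes. Without animal 5 it held the highest value in 23 of the 67 genes, against 14% of the tested genes. Among these genes were MRPS18A at 10.88, MRPL18 at 12.16 and MRPL35 at 12.50. The animal with the most lowest values after animal 5 was animal 10, with 8 of 67 (11.9%), a share near the 12.5% of the tested genes.

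**Figure D3:**
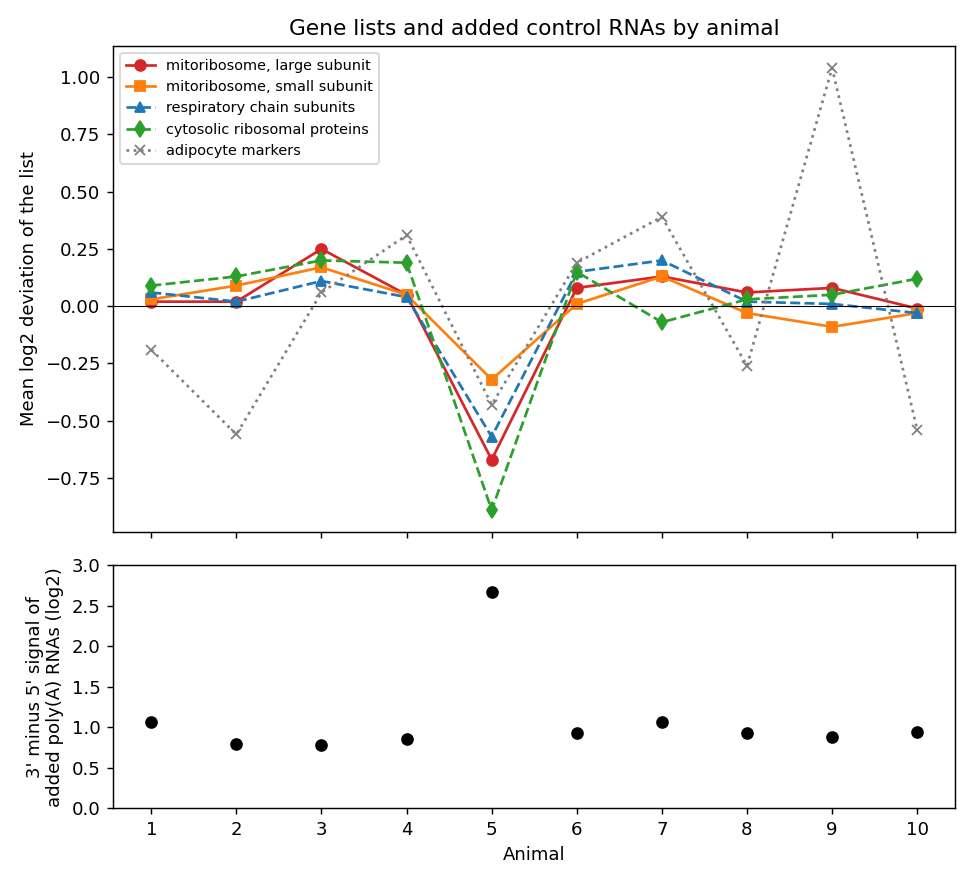
Upper panel: mean log2 deviation from each gene's mean, by animal, for the large and small subunits of the mitochondrial ribosome, the respiratory chain subunits, the cytosolic ribosomal proteins and the adipocyte markers. Lower panel: log2 3' minus 5' signal of the added control RNAs, where animal 5 is at 2.67 and the other 9 at 0.78 to 1.06; the 3 ribosome lines and the respiratory chain line have their lowest point in animal 5.

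Pairs of mitochondrial ribosomal protein genes moved together across the 10 animals, and much less so across 9. The median Pearson r was 0.31 over 2211 pairs, against 0.00 over all pairs of tested genes, and 34.2% of the pairs had an r above 0.5, against 11.9%. Within the large subunit the median was 0.38, within the small subunit 0.07 and between subunits 0.25. The shared movement was not particular to these genes. Between the 67 genes and nuclear-encoded respiratory chain genes the median r was 0.33, with 37.8% above 0.5. With cytosolic ribosomal protein genes it was 0.43, with 45% above 0.5. Without animal 5 the medians were 0.07 over all pairs of the 67 genes, 0.07 within the large subunit, 0.06 within the small subunit and 0.08 between them, and 0.00 over all pairs of tested genes. With the respiratory chain genes and the cytosolic ribosomal protein genes they were then 0.09 and 0.04. These values are across genes of the same arrays, which are not independent. MRPL18 had the highest median r with the other 66 genes, 0.67 over 10 animals and 0.30 over 9. MRPL15 had the lowest over 10 animals, -0.56, which was 0.04 over 9.

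Where the gene had a second probe set, the readings of animal 5 did not always point the same way. Of the 67 genes 14 had more than 1 probe set, and the median r between the 2 brightest was 0.52 over 10 animals and 0.62 over 9. MRPS28 is the clearest case of disagreement. Its brightest probe set stood at 9.95 in animal 5 and 9.06 to 9.93 in the other 9, and its second at 7.29 in animal 5 and 8.85 to 9.65 in the others. The r between them was -0.26 over 10 animals and 0.65 over 9. MRPL57 had a brightest probe set at 10.26 in animal 5 and 9.92 to 10.62 in the others, and a second at 8.52 in animal 5 and 9.79 to 10.48 in the others. MRPL43 was low in animal 5 by its brightest probe set, at 10.13 against 10.55 to 11.37 in the others, and inside the range by its second, at 11.03 against 10.01 to 11.44. For MRPS9 the difference between animal 5 and the mean of the other 9 was 0.74 by the brightest probe set and -0.44 by the second. The same 2 differences were -0.38 and 0.08 for MRPL14, -1.01 and -0.19 for MRPS34, and 0.52 and 0.03 for MRPS35. The direction in animal 5 of MRPS28, MRPL57, MRPL43, MRPS9 and MRPL14 thus depended on the probe set read. In MRPS34 and MRPS35 the size of the difference did.

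Other genes had probe sets that moved alike. The 3 probe sets of MRPL23 stood at 10.53, 10.48 and 10.27 in animal 5, and the other 9 had medians of 11.31, 11.32 and 11.23. The 2 brightest probe sets of MRPL39 had differences of -0.58 and -0.77 (r = 0.91 over 10 animals), and those of MRPL20 -1.22 and -0.74 (r = 0.80). The brightest probe set of MRPS14, of a type that can match several transcripts, had a difference of -1.88 and the second one of -3.31, with r = 0.94, so the same gene gave steps of unequal size.

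**Figure D4:**
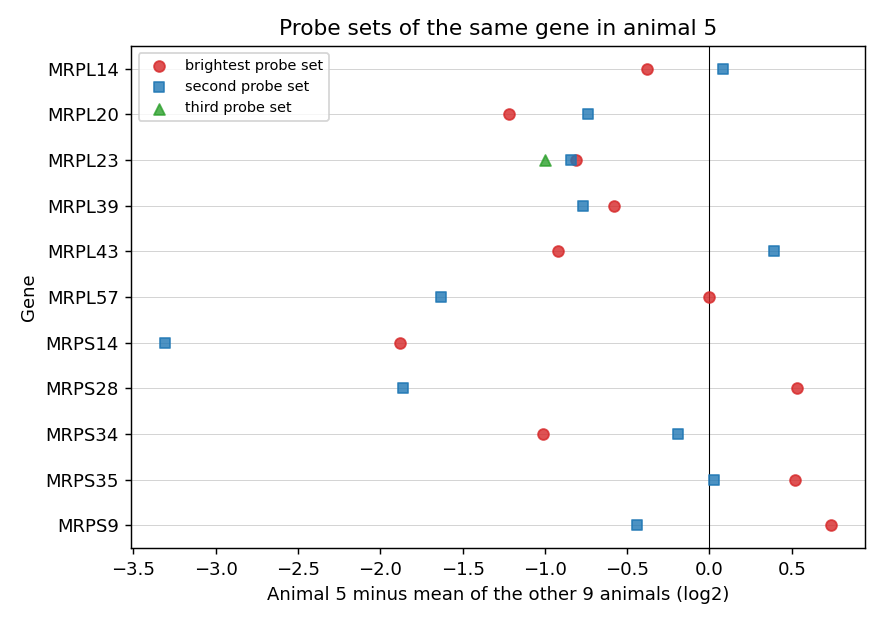
Difference between animal 5 and the mean of the other 9 animals, on the log2 scale, for each probe set above the level filter of the 11 genes with at least 2 such probe sets. In MRPL23, MRPL20, MRPL39 and MRPS14 all points lie left of 0, while MRPS28, MRPS9, MRPL43 and MRPL14 have points on both sides.

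The respiratory chain score asked which genes followed the nuclear-encoded subunits of the chain, most of them partners of the proteins this ribosome makes. The score is the mean deviation of 76 such genes, -0.57 in animal 5 and -0.03 to 0.20 in the other 9. In limma, fitted over all tested genes with Benjamini-Hochberg adjustment at 0.05, 20 of the 67 genes (29.9%) rose with the score and 0 fell, against 7.02% and 1.99% of the 6195 genes outside the score's list (9.01% in both directions). The unadjusted p was below 0.05 for 35 of the 67, against 24.9%, and the median slope was 0.21 per SD of the score, against 0.02. MRPS18A had the steepest slope, 0.89 (SE 0.18, adjusted p = 0.0132), followed by MRPL27 with 0.65 (SE 0.10, adjusted p = 0.00406), MRPS16 with 0.61 (SE 0.09, adjusted p = 0.00406) and MRPS14 with 0.59 (SE 0.10, adjusted p = 0.00673). MRPL51, MRPL13, MRPL46, MRPL35, MRPL18, MRPL16, MRPL58 and MRPL11 also rose, with slopes from 0.43 to 0.50. The lowest slopes were those of MRPL15 (-0.36, adjusted p = 0.0976), MRPS2 (-0.30, adjusted p = 0.214), MRPS9 (-0.17, adjusted p = 0.596) and MRPS5 (-0.16, adjusted p = 0.461), none past the test in limma.

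The whole count rested on animal 5. Without it 0 of the 67 genes passed in limma, where 0 of the 6199 genes outside the list passed. Of the 67, 5 had an unadjusted p below 0.05, against 9.28% of the genes outside the list, and the median slope was 0.05. The slope of MRPL27 was then -0.01 and that of MRPS18A 0.12. Each fit took the SD of the score over the animals it kept. Slopes with and without animal 5 are therefore in different units, here and in the fits below, and their sizes cannot be compared directly. With the 3' minus 5' difference of the added control RNAs as a covariate 0 of the 67 passed as well, and 0 genes outside the list. The covariate and the score both have their extreme value in animal 5. That fit can hardly separate them, so no conclusion is drawn from its count. A Spearman correlation per gene over all 10 animals called 0 of the 67 and 6 of the genes outside the list.

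Cytosolic ribosomal proteins, which form the ribosome of the rest of the cell, gave a similar count. Their score, over 57 genes, was -0.89 in animal 5 and -0.07 to 0.20 in the other 9. In limma 24 of the 67 genes rose with it and 1 fell (37.3% in both directions), against 9.66% that rose and 3.81% that fell of 6214 genes outside the list (13.5% in both directions). MRPS16 rose by 0.64 per SD (SE 0.07, adjusted p = 0.000512) and MRPL27 by 0.68 (SE 0.08, adjusted p = 0.000826). MRPS18A rose by 0.83 and MRPS14 by 0.57 (adjusted p = 0.0188 and 0.00609). The gene that fell was MRPL15, with -0.47 (SE 0.09, adjusted p = 0.00637). Without animal 5, 0 of the 67 passed in limma, where 0 of the 6218 genes outside the list passed. Of the 67, 1 had an unadjusted p below 0.05, against 3.2% of the genes outside the list, and the median slope was 0.01. The Spearman correlation called 0 of the 67 and 2 of the genes outside the list.

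The 3' minus 5' difference of the added control RNAs, an array measure, was fitted in the same way. In limma 27 of the 67 genes fell with it and 1 rose (41.8% in both directions), against 11.1% that fell and 4.37% that rose of all 6271 tested genes (15.5% in both directions). Of the large subunit genes 22 of 45 passed, and of the small subunit genes 6 of 22. MRPS18A fell by 0.92 per SD of the difference (SE 0.17, adjusted p = 0.00405), MRPL27 by 0.68 (SE 0.08, adjusted p = 0.000527), MRPS16 by 0.63 (SE 0.07, adjusted p = 0.000603) and MRPS14 by 0.58 (SE 0.10, adjusted p = 0.00308). MRPL15 rose by 0.44 (SE 0.10, adjusted p = 0.0141). With animal 5 left out, 0 of the 67 passed in limma, where 0 of all 6275 genes tested then passed. Of the 67, 3 had an unadjusted p below 0.05, against 4.59% of all genes, and the median slope was 0.00. The score of the respiratory chain, that of the cytosolic ribosome and the control RNA difference all have their extreme value in animal 5, so the 3 fits cannot be told apart in these animals.

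No mitochondrial ribosomal protein gene passed the limma test with the adipocyte score, made of 12 fat cell genes. Of those 12, each fitted against the score without it, 0 passed either. This fit therefore cannot show that the 67 genes do not follow the score. The score ran from -0.56 in animal 2 to 1.04 in animal 9 and was -0.43 in animal 5. In limma 0 of the 67 genes passed, 0 had an unadjusted p below 0.05, and the smallest adjusted p was 0.839. Of the 6259 genes outside the list 0% passed and 383 (6.12%) had an unadjusted p below 0.05, and the Spearman correlation called 3 of them and 0 of the 67. Slopes were above 0 in 54 of the 67 genes, with a median of 0.09, against 3489 of the 6259 genes outside the list, with a median of 0.02. Without animal 5 they were above 0 in 43 of the 67, with a median of 0.03, against 3224 of 6263, with a median of 0. Without animal 5 limma called 0 of the 67 again, and 0 of the 6263 genes outside the list. Of the 67, 2 then had an unadjusted p below 0.05, against 6.4% of the genes outside the list. The ends were MRPS18A (0.33), MRPL38 (0.23), MRPL16 (0.22) and MRPS22 (0.21) at the top and MRPS26 (-0.24), MRPS28 (-0.19), MRPS7 (-0.17) and MRPS2 (-0.16) at the bottom.

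**Figure D5:**
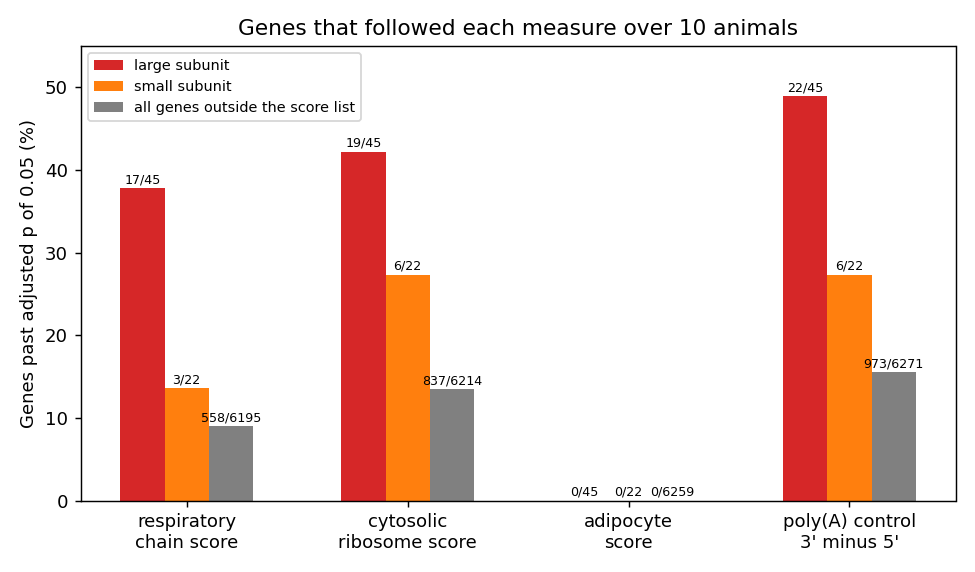
Percent of genes past an adjusted p of 0.05 in limma over 10 animals for each of the 4 measures, for the large subunit (red), the small subunit (orange) and all genes outside the score's list (grey), with counts above the bars. For the 3' minus 5' difference of the added RNAs 22 of 45, 6 of 22 and 973 of 6271 genes passed, and for the adipocyte score 0 in each; without animal 5 every bar is at 0.

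Other genes of mitochondrial translation were read from the fit to the 3' minus 5' difference, in which limma called 15.5% of all tested genes, 11.1% falling and 4.37% rising. The difference between these lists and the 67 genes was not tested. Another 5 mitochondrial ribosomal proteins carry other symbols, DAP3, AURKAIP1, CHCHD1, GADD45GIP1 and PTCD3. All 5 had their lowest value in animal 5, as did 27.6% of the tested genes. In limma 2 of them fell with the 3' minus 5' difference, AURKAIP1 by 0.44 (adjusted p = 0.0111) and CHCHD1 by 0.33 (adjusted p = 0.0357). Of 12 translation factors 2 fell, GFM2, which splits the ribosome after termination, by 0.58 (adjusted p = 0.000777) and GUF1 by 0.30 (adjusted p = 0.0179). The elongation factor TUFM had a slope of -0.17 (adjusted p = 0.171) and GFM1, the factor that moves the ribosome along, 0.15 (adjusted p = 0.533). Of 17 ribosome assembly factors 4 fell, MTERF4, ERAL1, MPV17L2 and C1QBP, with slopes from -0.45 to -0.24. Of 16 aminoacyl-tRNA synthetase and amidotransferase genes, which charge the tRNAs, 1 fell, GATC by 0.64 (adjusted p = 0.00353), and 1 rose, AARS2 by 0.32 (adjusted p = 0.0496). The median slopes of these lists were -0.19, -0.07, -0.15 and -0.02, against -0.19 for the 67 genes and -0.02 for all tested genes. Without animal 5, 0 genes of these 4 lists passed in limma, where 0 of all tested genes passed.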

How the data were processed

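The authors deposited 1 linear intensity per probe set and array, per the labels' description of 10 Affymetrix GeneChip Bovine Genome Arrays hybridised with biotin-labelled poly(A) RNA. The sources used here name no software. The deposited intensities share a common scaling, with a mean of 499.8 to 499.9 on each array after removal of the lowest and highest 2%. The number of arrays limits the precision.

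The 112 control probe sets were left out. Values were turned into log2(intensity + 16) and quantile normalized, because the array medians spanned 0.24, over a limit of 0.2. Of 24016 probe sets, 13292 had 1 symbol, 86 several and 10638 none listed. All 67 symbols were found in a RefSeq table of ARS-UCD2.0, used for names only. Each covariate was in SD units over the animals of that fit. Slopes came from limma (3.58.1, under R 4.3.3), and p-values were adjusted by Benjamini-Hochberg over all 6271 tested genes. A gene in a score's list was fitted against the score without it. The fits were tested on simulated data.

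The members and lists were chosen with earlier results of these data known. Genes with full values were the 8 largest and 6 smallest SDs, the 4 largest and 4 smallest slopes per fit, up to 12 past each test and a fixed set of known members. The genes added around them for their place in the ribosome were chosen after their values were seen. Alternatives were other scalings, level filters, pseudocounts and variance priors, averaging of probe sets, Spearman correlation, a covariate and animals left out.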

Additional observations from a re-analysis of the deposited data

Results flagged for a closer look

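In 20 of the 67 genes (29.9%) the lowest animal stood apart from the rest, judged by its gap to the next animal as a share of the gene's whole range against Dixon's critical value for 10 samples. In each of the 20 that animal was animal 5, and no gene stood apart through another animal or at the high end. Chance flags about 1 in 20 groups, and 16.7% of the tested genes passed the same limit.

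The shares were largest for MRPS16 (0.800), MRPL27 (0.799), MRPL13 (0.754), MRPL16 (0.739) and MRPL51 (0.727). MRPL46 (0.690), MRPL45 (0.672), MRPL11 (0.667), MRPL20 (0.637) and MRPL35 (0.624) followed, then MRPS14 (0.593), MRPL18 (0.576), MRPL55 (0.567), MRPS25 (0.567), MRPL41 (0.557) and MRPL58 (0.556). The smallest were MRPL30 (0.549), MRPL50 (0.542), MRPS18A (0.529) and MRPL38 (0.516). The mean deviation of the 67 genes gave 0.687, that of the large subunit 0.711 and that of the small subunit 0.481, all low in animal 5. The respiratory chain score gave 0.701 and the cytosolic ribosome score 0.750, also low in animal 5. The 3' minus 5' difference of the added control RNAs gave 0.851, high in animal 5.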

How the results depend on the processing

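The low values in animal 5 and the spread kept their size under other scalings, level filters, pseudocounts and averaging of probe sets. The mean deviation of the 67 genes in animal 5 lay between -0.57 and -0.44, the number lowest there between 34 and 44, and the median SD between 0.34 and 0.37. Counts of the 67 genes past the limma test moved more. For the respiratory chain score the count of 20 was 7 with the deposited scaling, 6 with median centring, 12 with no level filter, 10 with the mean of probe sets, and 0 with the control RNA covariate or by Spearman. For the cytosolic ribosome score the count of 25 was 7, 6, 0 and 0 with the deposited scaling, median centring, the covariate and Spearman. For the control RNA difference the count of 28 was 17 with median centring, 18 with no level filter and 0 by Spearman. Over all genes, 558 calls with the respiratory chain score were 253, 143, 266 and 271 with the deposited scaling, centring, no filter and the mean of probe sets, 837 with the cytosolic ribosome score were 369, 351 and 485 with the first 3, and 973 with the control RNA difference were 617 with no filter. By Spearman 6, 2 and 0 genes passed, and 0 with the covariate. The covariate fit can hardly separate the control RNA difference from the respiratory chain and cytosolic ribosome scores, as all are extreme in animal 5. With the adipocyte score 0 genes passed, 1 with the deposited scaling, 1 with no level filter, 2 with a pseudocount of 64, 1 with an intensity trend in the variance prior, 1 without animal 6 and 3 by Spearman. The causes were not tested.

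With each animal left out in turn the counts of the 67 genes ran from 0 to 24, from 0 to 26 and from 0 to 28 for the 3 measures. The 0 came without animal 5, where 0 of all genes passed too, and otherwise the counts stayed at 15, 19 and 23 or more. The number with an SD over 0.5 ran from 4 to 17 and the median r from 0.07 to 0.34, both lowest without animal 5. Slopes that changed sign did so without animal 5. All slopes are per SD over the animals kept, so their sizes are in different units when animals are left out. MRPL27 ran from -0.01 to 0.71 for the respiratory chain and from -0.74 to 0.02 for the control RNA difference. MRPS18A ran from -0.17 to 0.95 and MRPS14 from -0.05 to 0.62 for the cytosolic ribosome, and MRPS14 from -0.64 to 0.03 for the control RNA difference. Without animals 3, 5 and 7, the counts were 0, 0 and 0, against 3, 0 and 0 over all genes. The median SD was then 0.22, the number over 0.5 was 4 and the median r 0.01. The slopes were then -0.19 (MRPS18A) and -0.01 (MRPL27) for the respiratory chain, -0.35 (MRPS18A) for the cytosolic ribosome, and -0.07 (MRPL15), 0.04 (MRPS16) and 0.06 (MRPL27) for the control RNA difference. With the covariate, slopes for the cytosolic ribosome were -2.16 (MRPS18A) and -0.19 (MRPS14). Score and covariate are both extreme in animal 5, so the signs of these slopes are not read. No paired analysis was possible because there is 1 group.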

Other observations

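Regulators of mitochondrial genes, 5 tested of 6 measured, had a median SD of 0.52 over 10 animals, against 0.35 for the 67 ribosomal protein genes, and of 0.53 without animal 5, against 0.24. PPARGC1A, a coactivator of mitochondrial biogenesis, ran from 8.84 in animal 9 to 10.83 in animal 7. The transcription factor MYC ran from 7.30 in animal 8 to 9.84 in animal 5, and YY1 from 10.81 in animal 6 to 12.12 in animal 5. NRF1, with a mean of 5.42, was below the level filter and was not tested. In limma 0 of the 5 passed any of the 4 fits.

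Of 11 tested genes for transcription and RNA processing in mitochondria, 2 fell with the 3' minus 5' difference of the added control RNAs in limma, where 11.1% of all tested genes fell. SSBP1, the single-stranded DNA binding protein of mitochondria, fell by 0.37 (adjusted p = 0.00899) and HSD17B10, a subunit of mitochondrial RNase P, by 0.46 (adjusted p = 0.00418). Both were lowest in animal 5, and without it 0 of the 11, and 0 of all tested genes, passed. The transcription factor TFB2M had a slope of 0.09 (adjusted p = 0.548) and its lowest value in animal 10.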
